A study of Mus musculus with 15 samples.

Results

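The baseline described here is the messenger RNA of tibialis anterior muscle that had received the control virus. It comprises the 7 mock libraries of the 15 in the series, chosen by their label as mock: 4 columns of the male count table and 3 of the female table. Adult male and female C57BL/6 mice had an adeno-associated virus of serotype 6 (AAV6) carrying EGFP, a green fluorescent protein, delivered to the hindlimb, and RNA was taken from the muscle 2 months later. Vector and reporter are therefore shared by all 7 libraries, and no library of muscle without virus was used here. The series' other libraries, from muscle given a form of LSMEM2, were not used, and the male and female tables were described apart, since sex and table cannot be told apart. Whether each library stands for its own animal is not said by the labels, so the spread within a table may be technical. Library numbers are column numbers in males and the numbers of the sample titles in females, and they have no order.

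The tibialis anterior lifts the foot and is built mostly of fast-twitch fibres. Fast fibres contract with type II myosins, clear calcium with a fast form of the sarcoplasmic reticulum pump and the soluble buffer parvalbumin, and draw heavily on glycogen and glycolysis. Around and between them lie the motor nerve and its junctions, capillaries, fibroblast-like cells that lay down collagen, tendon cells at the muscle's ends, satellite cells, and resident and visiting immune cells. In RNA from whole muscle, fewer cells of a type and less RNA per cell cannot be told apart.

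Abundance is given as CPM, the count of a gene divided by the total of its library and scaled to 1000000. Total counts were 15454510, 15033321, 14318777 and 14297620 in male mock libraries 1 to 4, and 9375057, 10790101 and 9285145 in female mock libraries 1 to 3. Long genes collect more counts per transcript, so an order of genes by CPM is an order of counts. Some genes, the highest and the isoform pairs among them, were also compared after division by exon length, as CPM per kilobase (kb). A gene was called variable where its mean was 10 CPM or more and its coefficient of variation (CV, the SD over the mean of the libraries of a table) was above 50%. No gene was tested between groups. Some libraries stood apart within their table. Male libraries 3 and 4 held more RNA of bone and collagen genes than libraries 1 and 2, and male library 2 held more counts of a ribosomal RNA entry and 3 other genes. Female library 2 held immunoglobulin RNA, female libraries 2 and 3 held more RNA of interferon-induced and antigen-presentation genes than library 1, and female library 3 was low in long transcripts. Values are therefore given library by library.

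The labels name skeletal muscle, while the extraction protocol speaks of hearts, so heart markers were read first. In males, the cardiac genes Myh6 (alpha-myosin heavy chain) and Nppa (atrial natriuretic peptide) had means of 4.44 and 0.119 CPM, and Mybpc3, Nppb, Nkx2-5 and Gata4 were at 0 in all 4 libraries. A count of 0 allows up to 3 counts, or 0.194 to 0.210 CPM in these libraries. In females, Myh6 had a mean of 5.24 CPM, and Mybpc3, Myl7 and Gata4 were at 0 in all 3 libraries, where 0 allows up to 0.278 to 0.323 CPM. Of the 17 heart markers listed, 10 had a mean under 1 CPM in each table. The list's largest members, Actc1 and Sbk2, reached 187 and 103 CPM in males, and Actc1, cardiac actin, is also made in skeletal muscle. The sex-linked genes went with the labels: Ddx3y, on the Y chromosome, lay at 85.2, 81.4, 87.6 and 92.2 CPM in the male libraries and at 0 in the female ones, and Xist, the RNA of the inactive X, was under 0.1 CPM in the male libraries and at 62.7, 104 and 28.2 CPM in the female ones.

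In the male mock libraries the transcriptome was led by the contractile apparatus of fast fibres. The 10 genes with the most counts were Myh4, Acta1, Atp2a1, Tnnt3, Tpm1, Ckm, Aldoa, Myh1, Myl1 and Ttn, and they held 20.2, 20.8, 19.7 and 20.1% of all counts in libraries 1 to 4. Between 177 and 205 genes held 50% of a library's counts. Myh4, the myosin heavy chain of type IIB fibres, lay at 44605, 46222, 43322 and 42178 CPM, a mean of 44082 ± 1737 (SD, n = 4). Acta1, skeletal actin, lay at 28226, 29721, 27771 and 30115 CPM. Atp2a1, the fast sarcoplasmic calcium pump, lay at 28138, 29097, 28468 and 29619 CPM. The order of the libraries differed from gene to gene, with CVs of 3.94% for Myh4, 3.92% for Acta1 and 2.29% for Atp2a1.

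**Figure D1:**
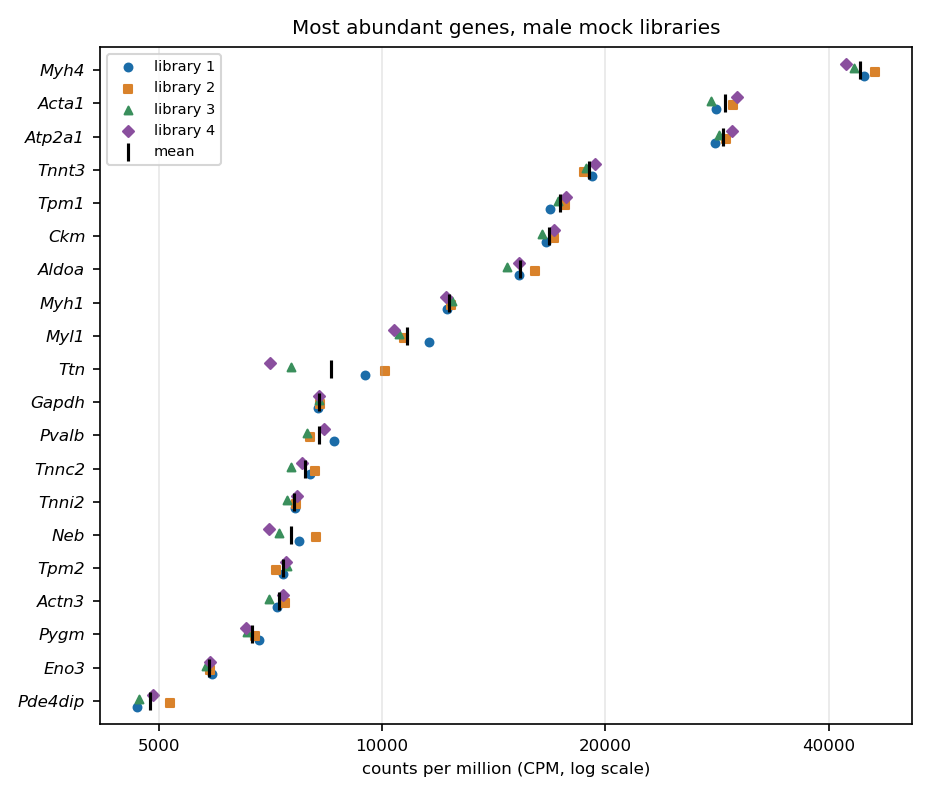
CPM on a log axis for the 20 genes with the most counts in the male mock libraries, with 1 point per library and a bar at the mean. The 4 points of a gene nearly coincide, and Ttn, at 7051 to 10088 CPM, is spread most widely.

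Per kilobase of exon the order changed, and short thin-filament genes led. Acta1 stood first at 18853 CPM per kb, followed by Tnnt3, fast troponin T, at 12015, and Tnnc2, fast troponin C, at 9827. Atp2a1 followed at 8292, Pvalb, parvalbumin, at 7891, and Myh4 at 7327 CPM per kb. Ttn, which codes for the giant spring protein titin and is at rank 10 by counts, at 9491, 10088, 7533 and 7051 CPM, ranked 528 per kb at 73.1. Its values were higher in libraries 1 and 2 than in 3 and 4, a split picked after the values were seen. Neb, nebulin, the ruler of the thin filament, lay at rank 115 per kb. Of the 25 named genes with the most counts, 19 were also among the 25 with the most counts per kb. The 7 fast thin-filament genes summed to 94408, 96459, 93305 and 97438 CPM in libraries 1 to 4, a CV of 1.97%, and the 8 fast thick-filament genes to 80777, 81917, 77987 and 77113 CPM. The highest library stood 1.04 and 1.06 times above the lowest in these sums.

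Several of the leading genes share their locus with another annotated gene, and whether the authors' counting used strand is not given in the sources used here, so their levels are less sure. Ckm, muscle creatine kinase, lay at 16786 CPM, and the non-coding gene A930016O22Rik, which overlaps it, at 4552 CPM. Mylpf, the fast regulatory myosin light chain, and Septin1, a cytoskeletal septin, overlap on chromosome 7 and held near-equal values of 3883 and 3882 CPM. The reads of such pairs cannot be told apart. Pygm, muscle glycogen phosphorylase, and Myl1, the fast essential light chain, are among the genes listed in more than 1 entry, whose counts were added together here.

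Among the myosin heavy chains, Myh4 made up 77.4% ± 0.723 (SD, n = 4) of the CPM per kb of the 4 adult limb isoforms, Myh4, Myh1, Myh2 and Myh7. Myh1, of type IIX fibres, made up 20.5% ± 0.553 and Myh2, of type IIA fibres, 2.13% ± 0.182. Myh7, of slow fibres, made up 0.00667% ± 0.00363. Myh7 itself lay at 1.49, 5.97, 8.57 and 5.67 CPM, so library 1 was lowest. Slow isoforms were rare in the other pairs of proteins that come in a slow and a fast form. The slow troponins Tnnt1, Tnni1 and Tnnc1 made up 0.0203% ± 0.00587, 0.0146% ± 0.005 and 0.0341% ± 0.0105 of their pairs, and the slow calcium pump Atp2a2 0.102% ± 0.0159. The exceptions were Mybpc1, slow myosin-binding protein C, at 30.4% ± 1.58, Actn2, the alpha-actinin of all fibres, at 11% ± 0.435, and Ldhb, the heart form of lactate dehydrogenase, at 10.6% ± 0.607. Of the 12 pairs these 3 were the only ones with a share above 2% in the listed isoform.

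Embryonic and perinatal myosins were also detected. Myh8, the perinatal form, lay at 540.3, 639, 621 and 637 CPM and Myh3, the embryonic form, at 49.7, 22.4, 46.7 and 65.6 CPM, with library 2 lowest for Myh3. Myh13, the extraocular myosin, split the libraries, at 151, 48.6, 41 and 149.6 CPM: libraries 1 and 4 were high and libraries 2 and 3 low. The myogenic regulator Myog lay at 7.05, 2.79, 2.44 and 2.31 CPM, highest in library 1, and Myod1 at 40.9, 47, 34.1 and 33.2 CPM. Chrng, the fetal subunit of the acetylcholine receptor, was at 0.2 CPM or less in every male library.

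Genes of excitation and calcium release were steady. Ryr1, the calcium release channel, lay at 4006, 4384, 4089 and 4055 CPM, and Cacna1s, the voltage sensor that opens it, at 1209, 1201, 1226 and 1208 CPM with a CV of 0.865%. Casq1, which stores calcium in the reticulum, lay at 2535, 2438, 2485 and 2653 CPM. Pln, phospholamban, and Sln, sarcolipin, small inhibitors of the calcium pumps, were near absent, with means of 2.92 and 1.31 CPM. Values of other such inhibitors are not given here. Of the 31 calcium-handling genes, 27 reached 10 CPM, their median CV was 3.65%, and that of all genes at this level was 5.86%. These medians are not matched for level. The median CV of all genes was 6.37% at 10 to 100 CPM, 3.92% at 100 to 1000 and 3.11% at 1000 CPM or more. The voltage-gated sodium channel Scn4a had a mean of 698 ± 37.6 CPM and the chloride channel Clcn1 186 ± 4.57 CPM (SD, n = 4).

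Energy genes were also steady across the male libraries. The 24 glycolysis genes summed to 50095, 50822, 48922 and 49965 CPM, and the 13 glycogen genes to 14562, 14023, 13930.4 and 14005 CPM. Gapdh, a glycolytic enzyme, lay at 8195, 8234, 8216 and 8227 CPM, the lowest CV (0.209%) of any gene with a mean of 100 CPM or more and a named symbol. Pfkfb3, which makes the activator of phosphofructokinase, was the exception among glycolysis genes at 169, 187, 56.3 and 68.2 CPM, high in libraries 1 and 2 and low in 3 and 4. Chac1, a glutathione-degrading enzyme of the stress response, had the same split at 43.3, 47.6, 14.8 and 12.4 CPM. Fbxo32 and Trim63, ubiquitin ligases of muscle protein breakdown, lay at 241, 256, 182 and 142 and at 240.1, 199, 190.1 and 177 CPM. Fbxo32 was likewise higher in libraries 1 and 2. This split was picked after the values were seen, and its share among all genes was not counted.

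Nuclear genes of the respiratory chain were even across libraries. The 36 genes of complex I summed to 8873, 8631, 9041 and 8838 CPM and the 15 of complex IV to 5015, 4950.2, 5063 and 4939.8 CPM. The highest library stood 1.05 and 1.03 times above the lowest. Cox6a2, the muscle form of a complex IV subunit, lay at 931, 921, 913 and 927 CPM. The adenine nucleotide carrier Slc25a4 had a mean of 4623 ± 40.7 CPM and the ATP synthase subunit Atp5b 3601 ± 44 CPM. Fatty acid oxidation was represented by Acadvl at 431 ± 6.47 CPM and Hadhb at 493 ± 19.4 CPM. Ppargc1a, the coactivator of mitochondrial genes, lay at 139, 114, 144 and 122 CPM. Protein-coding genes of the mitochondrial genome were not analysed here.

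Genes of the neuromuscular junction, the site where the series places LSMEM2, were present at low levels. Lsmem2 lay at 29.8, 29.2, 29.9 and 28.7 CPM, a CV of 1.83%, and its relative Lsmem1 at 17.2, 16.3, 18.6 and 19 CPM. Counting alone gave a median CV of 5.05% at 10 to 100 CPM, so 1.83% cannot show that Lsmem2 was unusually steady. Lsmem2 overlaps Ifrd2 and Sema3b in the annotation, so its reads are less sure. Of the 25 junction genes, 17 reached 10 CPM, with a median CV of 7.4%, against 5.86% for all genes at that level. These medians are not matched for level, and that of all genes at 10 to 100 CPM was 6.37%. The adapter Dok7 had a mean of 35.7 ± 1.15 CPM, the esterase Ache 35.1 ± 2.52, the receptor-clustering protein Rapsn 27.6 ± 2.32 and the kinase Musk 22.1 ± 1.96 CPM. Among the receptor subunits, Chrnb1 lay at 29.7, 28.7, 27 and 28.8 CPM, Chrna1 at 12.7, 10.6, 7.45 and 9.45 and the adult subunit Chrne at 9.87, 7.03, 7.86 and 7.47 CPM. Colq, the collagen tail of the esterase, was highest in library 1, at 9.58, 4.92, 5.17 and 3.92 CPM. The ligand gene Nrg1 had 1 library above 0, at 0.0647 CPM.

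Markers of other cell types gave the muscle's background of vessels, connective tissue and nerve. The 22 endothelial markers summed to 1893, 1900.4, 2018 and 1929 CPM, and Pecam1 lay at 98.5, 99.8, 105 and 104 CPM. The 16 Schwann cell and nerve markers summed to 140.0, 149, 201 and 162 CPM and were highest in library 3. The 16 adipocyte markers summed to 1985, 2270.3, 2540.0 and 2316 CPM, most of it Car3, carbonic anhydrase 3, at 1819.6, 2038, 2138 and 2054 CPM, which muscle fibres also make. Among the other members, Scd1, a fatty acid desaturase, lay at 54.5, 89.7, 182 and 108 CPM. Adipoq, adiponectin, lay at 2.78, 5.25, 11.4 and 5.39 CPM and Cfd, adipsin, at 20.8, 32.4, 66.5 and 33.1 CPM. Library 3 was highest for all 4 genes. The 18 macrophage markers summed to 97, 99.1, 96 and 114 CPM, and the 19 markers of T and natural killer cells to 1.53, 0.74, 1.47 and 1.69 CPM in all, with every marker under 1 CPM. The 42 interferon-induced genes summed to 324, 297, 286 and 274 CPM, of which 11 reached 10 CPM and 0 were variable. Of all genes at that level 0.38% were variable, so a count of 0 of 11 is near that share. The median CV of the 11 was 9.35%, against 5.86% for all genes at that level. These medians are not matched for level, and that of all genes at 10 to 100 CPM was 6.37%.

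Few genes varied between the male libraries: 30 of the 7892 genes with a mean of 10 CPM or more were variable, a share of 0.38%. A limit of 30% in place of 50% gave 75 genes, a share of 0.95%. Of the 30 genes above 50%, 21 were highest in library 3, 8 in library 2 and 1 in library 1. Of all 7892 genes, 32.5% were highest in library 3, 22.7% in library 2 and 24.1% in library 1. Genes of bone and of collagen were among those highest in library 3. Mmp13, collagenase 3, lay at 1.29, 0.2, 123 and 59.5 CPM, Ibsp, bone sialoprotein, at 0.712, 0.0665, 55.9 and 25.2 CPM, and Spp1, osteopontin, at 2.26, 1.73, 44.3 and 32.3 CPM. All 3 were below 3 CPM in libraries 1 and 2 and above 20 CPM in libraries 3 and 4. Postn, periostin, lay at 15.8, 20.3, 215 and 133 CPM and Tnn, tenascin W, at 0.453, 0.133, 49.3 and 23.4 CPM. Ctsk and Acp5, osteoclast enzymes, lay at 5.44, 6.12, 23.1 and 16.5 and at 1.04, 1.46, 13.3 and 11.6 CPM. The osteoblast regulators Runx2 and Sp7 were lower, with values of 0.582, 1.33, 3.91 and 2.52 and of 0.0647, 0, 2.51 and 1.12 CPM, and Sost, of mature bone cells, was at 0 in all 4 libraries.

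Collagens followed the same order of libraries. Col1a1, a chain of type I collagen, lay at 189, 177, 838 and 479 CPM and Col1a2, its partner, at 249.8, 245, 865 and 526 CPM. Col12a1, of dense connective tissue, lay at 12.9, 11.2, 186 and 100.2 CPM and Col11a1 at 3.36, 3.19, 33.1 and 20.2 CPM. Library 3 was highest, library 4 second and libraries 1 and 2 low for each. The basement membrane collagen Col4a1 did not share this order, at 168, 177, 159 and 156 CPM, and the tendon marker Tnmd lay at 9.38, 8.45, 11.4 and 9.02 CPM. Summed over 17 bone genes the libraries gave 35.7, 39.5, 375 and 221 CPM, and over 15 matrix collagens 1257, 1293, 3353 and 2302 CPM. Of the bone genes 6 reached 10 CPM and 5 of those were variable, and of the collagens 15 reached it and 8 were variable, against 0.38% of all genes at that level. Both lists were chosen after these values were seen, so their counts describe the pattern and support nothing. Cartilage genes stayed near 0, with sums of 7.62, 6.59, 10.4 and 9.62 CPM.

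The fibroblast and tendon cell lists were also highest in library 3. The 25 fibroblast markers, which include several of these collagens, summed to 2589.6, 2624, 4681 and 3787 CPM, and the 18 tendon cell markers to 542, 455, 899.6 and 568 CPM. Of the fibroblast markers 24 reached 10 CPM, 15 of these were highest in library 3 and 4 were variable. Of all genes at that level, 32.5% were highest in library 3 and 0.38% were variable. Lum, lumican, a matrix proteoglycan and no collagen, lay at 30.6, 28, 114 and 80.4 CPM. Other markers were closer together. Pdgfra, the receptor that defines fibro-adipogenic progenitors, lay at 19.3, 20.5, 24 and 23.1 CPM and Dcn, decorin, at 426, 383, 476 and 488 CPM. The tendon regulator Scx lay at 2.98, 3.79, 4.05 and 4.27 CPM. The part of tissue makeup in these differences was not tested. Without libraries 3 and 4, the common biological CV of the male table, the spread between libraries beyond counting error over all genes, was 7.60%, against 8.61% with all 4. It was 7.64% without library 2 alone, 8.27% without library 3 alone and 9.71% without library 4 alone.

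**Figure D2:**
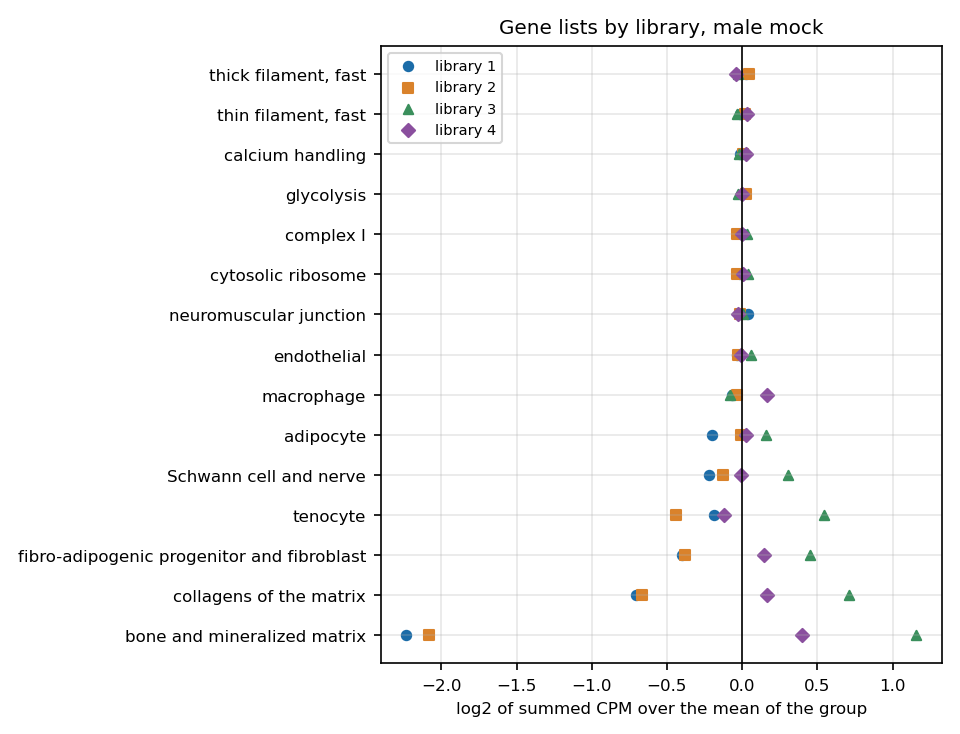
Log2 of the summed CPM of a gene list in each male mock library over the mean of the 4, for 15 lists. Fibre, energy and vessel lists sit within 0.1 of 0 in all 4 libraries, while collagens and bone genes run from libraries 1 and 2 on the left to library 3 on the right.

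Library 2 was set apart by a ribosomal RNA entry and 3 other genes. Rn28s1, an entry of 28S ribosomal RNA, lay at 16.8, 262, 14.3 and 21.8 CPM, and Lars2, annotated as mitochondrial leucyl-tRNA synthetase, at 289, 2114, 204 and 344 CPM. Whether the counts of Lars2 come from the messenger RNA of the synthetase was not tested. The predicted genes Gm15564 and AY036118 lay at 36.7, 316, 23.5 and 48.6 and at 7.05, 27.7, 4.61 and 7.9 CPM. In all 4 entries library 2 was highest and the other libraries were lower by more than 3-fold. Ribosomal protein genes did not share this, with sums of 14413, 14195, 14979 and 14613 CPM for 79 genes. Stress genes showed smaller splits. Mt1 and Mt2, metallothioneins, lay at 8.28, 8.18, 17.6 and 18.7 and at 3.95, 2.79, 11.2 and 9.65 CPM, higher in libraries 3 and 4. Atf3, a stress-induced transcription factor, lay at 39.6, 16.6, 20 and 22.3 CPM and Xirp1, a repair-associated sarcomere protein, at 808, 445, 494 and 533 CPM, both highest in library 1.

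From 10 CPM upward, the median spread of male genes lay above counting error, least so at 10 to 100 CPM. Among genes with a mean of 10 to 100 CPM the median CV was 6.37%, where counting alone gives 5.05%, at 100 to 1000 CPM it was 3.92% against 1.95%, and at 1000 CPM or more 3.11% against 0.572%. Any pair of libraries had between 8 genes (libraries 3 and 4) and 52 genes (libraries 2 and 3) that differed by 2-fold or more. Among the genes with the lowest CV, after Gapdh, were Gnpat, a peroxisomal enzyme of ether lipid synthesis, at 229, 229, 229 and 228 CPM, and Adipor2, an adiponectin receptor, at 207, 207, 206 and 206 CPM. These genes were chosen as the lowest of many, so their spread is a description only. In all, 12504 genes reached 1 CPM in every male library.

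The female mock libraries were also led by contractile and glycolytic genes. By mean counts the first 10 were Atp2a1, Myh4, Acta1, Tpm1, Tnnt3, Aldoa, Ckm, Myh1, Pvalb and Tnnc2, which held 19.3, 16.9 and 19.9% of all counts in libraries 1 to 3. Atp2a1 lay at 31572, 26938 and 27761 CPM and Acta1 at 26813, 23125 and 30101 CPM. Myh4 lay at 33439, 29855 and 22890.1 CPM, a mean of 28728 ± 5364 (SD, n = 3), lowest in library 3. Tnnc2, in contrast, was highest there, at 8623, 7825 and 13089 CPM. Between 176 and 258 genes held 50% of a library's counts, with library 2 at 258. Per kilobase, Acta1 at 17369.5, Tnnt3 at 12457 and Tnnc2 at 12307 CPM per kb led, and Ttn stood at rank 680 with 59.6.

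Library 3 of the female table was low in long transcripts and high in short ones. Ttn lay at 9181, 8008 and 3699 CPM, Neb at 7304, 7382 and 2825 CPM and Ryr1 at 4238, 3717 and 1971 CPM. Dmd, dystrophin, which links the cytoskeleton to the membrane, lay at 219, 236 and 82 CPM and Dst, the giant linker dystonin, at 761, 710.3 and 234 CPM. In each of these genes, of more than 20 kb of exon, library 3 was lowest. Genes with up to 1 kb of exon went the other way: their median log2(CPM + 1) lay 0.34 above the gene's mean over libraries in library 3, and 0.20 and 0.11 below it in libraries 1 and 2 (223 genes). For 274 genes above 15 kb the medians were -0.48 in library 3, 0.18 in library 1 and 0.31 in library 2. Genes above 15 kb held 5.14, 5.11 and 2.68% of the counts of libraries 1 to 3. The trend runs through every comparison of library 3 with the others given below, and its part in single genes was not tested.

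**Figure D3:**
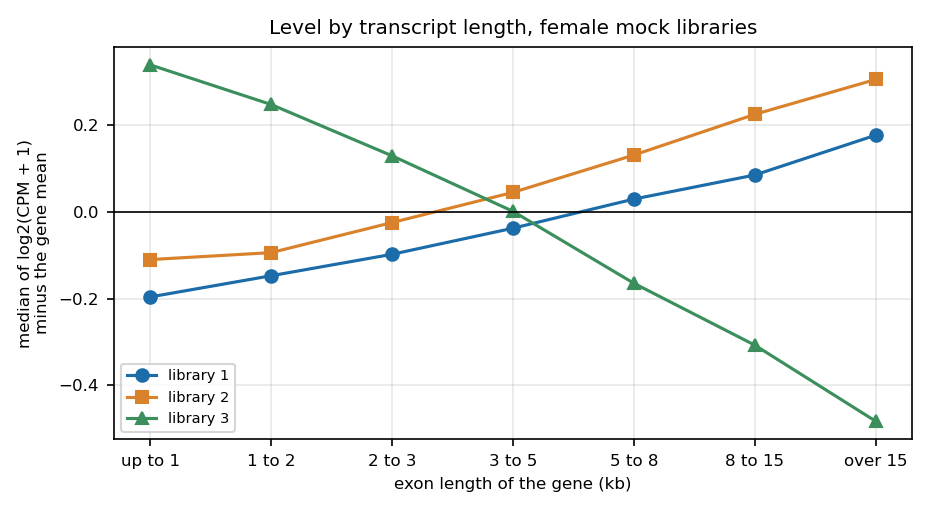
Median over genes of log2(CPM + 1) minus the gene's mean over the 3 female mock libraries, by exon length in kb, for genes with a mean of 10 CPM or more. The line of library 3 runs from 0.34 for genes of up to 1 kb to -0.48 for genes above 15 kb, and the lines of libraries 1 and 2 run the other way.

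Several lists of small proteins were highest in library 3, as short genes were, and the part of length in them was not tested. Of the 36 complex I genes, 35 were highest in library 3, with sums of 10176, 9036 and 13105 CPM, and all 14 complex IV genes that reached 10 CPM were, with sums of 5418, 4926 and 7849 CPM. Cox6a2 lay at 861, 765 and 1346 CPM. Of 79 ribosomal protein genes 75 were highest in library 3, and they summed to 16171, 20655 and 25363 CPM. Of all genes with a mean of 10 CPM or more, 34.0% were highest in library 3, and that share among short genes was not counted. The small heat shock genes Cryab and Hspb6, chaperones of the sarcomere, lay at 614, 739.7 and 1383 and at 1061, 1077 and 1843 CPM. Costamere genes, many of them long, went the other way, with sums of 5027, 4994 and 3656 CPM over 22 genes. The dystrophin relative Utrn, a long member of that list, lay at 45.8, 54.6 and 19.5 CPM. Xist, with 17.9 kb of exon, was also lowest in library 3.

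Fast myosins dominated each female library. Of the CPM per kb of the 4 adult isoforms, Myh4 made up 70.1, 71.7 and 65.4% in libraries 1 to 3, a mean of 69.1% ± 3.28 (SD, n = 3), Myh1 26.8% ± 1.9 and Myh2 4.14% ± 1.48. Myh7 made up 0.0275% ± 0.00884, and lay at 21.9, 10.3 and 16.5 CPM. Library 3 had the highest share of Myh2, 5.85%, against 3.22 and 3.34% in libraries 1 and 2. The slow troponins Tnnt1, Tnni1 and Tnnc1 each made up less than 0.1% of their pairs. Mybpc1 made up 35.6, 37.5 and 46.4%, Ldhb 18.2, 13 and 14% and Actn2 7.03, 8.99 and 12.1% of theirs. For Mybpc1 and Actn2 library 3 was highest, and for Ldhb library 1.

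Calcium, junction and energy genes of the female libraries held even values as well as values highest or lowest in library 3. Casq1 lay at 2423, 1969 and 2723 CPM, Cacna1s at 1385, 1133 and 783 CPM and Pvalb at 9471, 8081 and 12006 CPM. The glycolysis genes summed to 48485, 45045 and 56422 CPM, with Gapdh at 7578, 7524 and 8236 CPM. At the neuromuscular junction, Lsmem2 lay at 30, 31.7 and 32 CPM with a CV of 3.49% and Lsmem1 at 20.8, 22.6 and 22.1 CPM with a CV of 4.27%. The median CV of all genes at 10 CPM or more was 16.6%. Counting alone gave a median CV of 6.36% at 10 to 100 CPM. CVs below that value cannot show that Lsmem2 and Lsmem1 were steadier than other genes. Musk lay at 7.89, 8.25 and 8.4 CPM and Dok7 at 16.5, 18.6 and 16.2 CPM. Rapsn lay at 26.5, 27.8 and 42.1 and Chrnb1 at 22.8, 25.8 and 33.8 CPM, highest in library 3, and Lrp4, the agrin receptor, at 22.1, 20.9 and 10.4 CPM, lowest there. Syne1, a very long nuclear envelope gene of junctional nuclei, lay at 89.3, 103 and 44.3 CPM.

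Of the 11 metallothionein and glucocorticoid-response genes that reached 10 CPM in the female libraries 3 were variable, and of the 19 heat shock genes 0 were, against 3.95% of all genes at that level. Single genes of several lists, chosen after their values were seen, are given here. Pdk4, the kinase that shuts off pyruvate oxidation, lay at 619.8, 717 and 176 CPM, with library 3 lowest. Fkbp5, a glucocorticoid-induced chaperone, lay at 18.6, 47.8 and 17.9 CPM, with library 2 highest. Pfkfb3 lay at 260.4, 133 and 86.5 CPM and Chac1 at 70, 23.4 and 30.7 CPM, both highest in library 1. Library 3 was highest for the metallothioneins Mt1 and Mt2, at 3.84, 8.16 and 15.6 and at 1.39, 5.93 and 13.1 CPM, and for Csrp3 and Ankrd2, stretch-responsive sarcomere proteins, at 19.6, 54.9 and 108 and at 31.8, 65.6 and 124 CPM. In these 4 genes the order was library 1, 2 and 3 from low to high. The related Ankrd1 lay at 33.4, 106 and 93.1 CPM, lowest in library 1. Matrix genes were also lowest in library 1: Col1a1 lay at 56.2, 121 and 177 CPM, Col3a1 at 112, 258 and 286 CPM and Postn at 16.6, 27.1 and 102 CPM. Retnla, a product of alternatively activated macrophages and fat, lay at 14.1, 33.6 and 190.1 CPM, highest in library 3.

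Of the 8125 female genes with a mean of 10 CPM or more, 321 were variable, a share of 3.95%. A limit of 30% gave 1358 genes, a share of 16.7%. Among the 321 genes above 50%, library 2 was highest in 259, library 3 in 42 and library 1 in 20, and library 1 was lowest in 242. Among all 8125 genes, library 2 was highest in 43.5%, library 3 in 34.0% and library 1 in 22.4%, and library 1 was lowest in 34.0%. Leaving out library 1 gave 524 variable genes, 177 of them among the 321, leaving out library 2 gave 381 (157 shared), and leaving out library 3 gave 399 (253 shared). With the trend over exon length removed in each library, 245 of the genes of known length were variable, and 231 of these were among the 307 of known length that were variable before. Of the 24 genes of the immunoproteasome and of antigen presentation, all reached 10 CPM and 20 were variable, and of the 26 interferon-induced genes that reached 10 CPM, 21 were. The shares stand against the 3.95% of all genes at that level. Some genes of both lists reached 10 CPM only through libraries 2 and 3, so both shares are partly set by the filter. The 3 libraries took different places in different immune gene groups, which are given in turn.

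RNA for antigen presentation was low in library 1 and high in libraries 2 and 3, with sums of 602, 4717 and 3228 CPM. B2m, the light chain of class I molecules, lay at 99.8, 735 and 543 CPM and H2-K1, a class I heavy chain, at 93.3, 717 and 470.3 CPM. The class II genes Cd74, the invariant chain, and H2-Aa, an alpha chain, lay at 35.4, 698 and 403 and at 20.5, 404 and 216 CPM. Library 2 was highest in 19 of the 24 genes and library 3 in 5, where the shares over all genes at 10 CPM or more were 43.5 and 34.0%. Psmb8 and Psmb9, subunits of the immunoproteasome, lay at 5.23, 58.8 and 42.3 and at 3.63, 29.6 and 33.7 CPM, and Tap1, which carries peptides to class I, at 5.12, 48.6 and 39.2 CPM. Such genes passed 10 CPM only through libraries 2 and 3, so the counts of genes highest in a library are partly set by the filter. The transactivators of class I and class II, Nlrc5 and Ciita, lay at 3.84, 32 and 9.37 and at 10.6, 39.9 and 22.3 CPM. Class I genes resemble each other closely, so single values within that family are less sure than their sum.

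Interferon-induced genes were low in library 1 and high in both libraries 2 and 3. The 42 genes summed to 358, 2822 and 3255 CPM, so library 1 lay far below the other two. The immunity-related GTPases, which attack the vacuoles of parasites inside cells, were among the highest: Igtp lay at 19.3, 310.4 and 723 CPM, Irgm2 at 34.8, 477 and 559 CPM and Iigp1 at 20.6, 450.0 and 527 CPM. The guanylate-binding protein Gbp6 lay at 8.85, 217 and 282 CPM. Library 2 was higher for Cxcl9, a chemokine induced by interferon gamma, at 3.63, 81.5 and 27.9 CPM, and for Tgtp2 and Tgtp1, 2 near-identical T-cell-specific GTPases, at 16.8, 119 and 52.4 and at 7.27, 53.6 and 24.2 CPM. Library 3 was higher for Ifit3 and Bst2, at 6.67, 31.7 and 51.5 and at 8.21, 23.8 and 43.3 CPM, which type I interferon also induces. Of the 26 genes that reached 10 CPM, 14 were highest in library 2 and 12 in library 3, and library 1 was lowest in all 26. Of all genes at that level, 43.5% were highest in library 2, 34.0% were highest in library 3 and 34.0% were lowest in library 1. Some of the 26, such as Cxcl9 and Gbp6, passed 10 CPM only through libraries 2 and 3. These counts are therefore partly set by the filter.

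Promoters are shown for 4 genes of the interferon-induced list, chosen after their values and matches were seen, to show how the matches lie. The sequences are from RefSeq on the build GRCm38.p6 and run 5′ to 3′ on the gene's strand from 250 bases before the start to 50 after it. They come from chr11:58199306-58199605 (plus strand) for Igtp, chr11:58214727-58215026 (plus strand) for Irgm2, chr11:48992197-48992496 (minus strand) for Tgtp1 and chr19:34583279-34583578 (plus strand) for Ifit3. Capitals mark matches, on either strand, to GAAA repeated after a gap of any 2 bases, the core of the interferon-stimulated response element, and to TTCNNNGAA, the core of the gamma-activated site. On the other strand the first reads as TTTC repeated after the same gap, and the second is its own reverse complement. The matches shown do not overlap.
Igtp: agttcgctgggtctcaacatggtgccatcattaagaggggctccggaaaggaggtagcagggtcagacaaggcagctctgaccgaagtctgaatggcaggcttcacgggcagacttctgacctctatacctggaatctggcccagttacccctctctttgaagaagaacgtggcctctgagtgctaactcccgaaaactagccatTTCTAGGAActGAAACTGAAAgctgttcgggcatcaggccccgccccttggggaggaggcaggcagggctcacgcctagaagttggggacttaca
Irgm2: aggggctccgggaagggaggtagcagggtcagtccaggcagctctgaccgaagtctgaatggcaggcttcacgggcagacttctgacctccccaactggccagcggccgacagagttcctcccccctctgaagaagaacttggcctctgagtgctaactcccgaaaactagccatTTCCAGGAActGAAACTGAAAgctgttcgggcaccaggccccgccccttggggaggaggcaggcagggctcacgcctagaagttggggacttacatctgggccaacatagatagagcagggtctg
Tgtp1: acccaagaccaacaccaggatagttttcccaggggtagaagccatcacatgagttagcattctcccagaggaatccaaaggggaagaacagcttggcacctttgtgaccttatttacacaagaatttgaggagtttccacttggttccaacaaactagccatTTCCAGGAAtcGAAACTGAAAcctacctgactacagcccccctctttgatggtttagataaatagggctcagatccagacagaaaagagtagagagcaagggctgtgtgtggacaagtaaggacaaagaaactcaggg
Ifit3: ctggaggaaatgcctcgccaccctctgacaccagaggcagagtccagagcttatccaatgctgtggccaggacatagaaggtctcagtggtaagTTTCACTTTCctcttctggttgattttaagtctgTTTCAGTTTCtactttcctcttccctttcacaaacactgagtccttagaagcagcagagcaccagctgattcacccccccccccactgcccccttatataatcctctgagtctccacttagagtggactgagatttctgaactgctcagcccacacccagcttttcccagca

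Igtp, Irgm2 and Tgtp1 each held 1 match to each motif, 2 bases apart and in the same order, and Ifit3 held 2 of the first and 0 of the second. Of 32851 promoters of that length in the table, 3.44% held the repeat of GAAA and 8.30% held TTCNNNGAA. Other promoters of the list lack them: those of Cxcl9 and Ifi47 held 0 of both, although Cxcl9 had the highest CV of the listed genes at 10 CPM or more, 106% in the female libraries, and Ifi47 lay at 2.88, 24.6 and 12.5 CPM. Among the 35 starts of the interferon-induced genes that were matched, 19 held the first (54.3%) and 12 the second (34.3%). A match is a run of letters in this window and was not tested as a binding site, and genes of this list are named for their response to interferon.

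**Figure D4:**
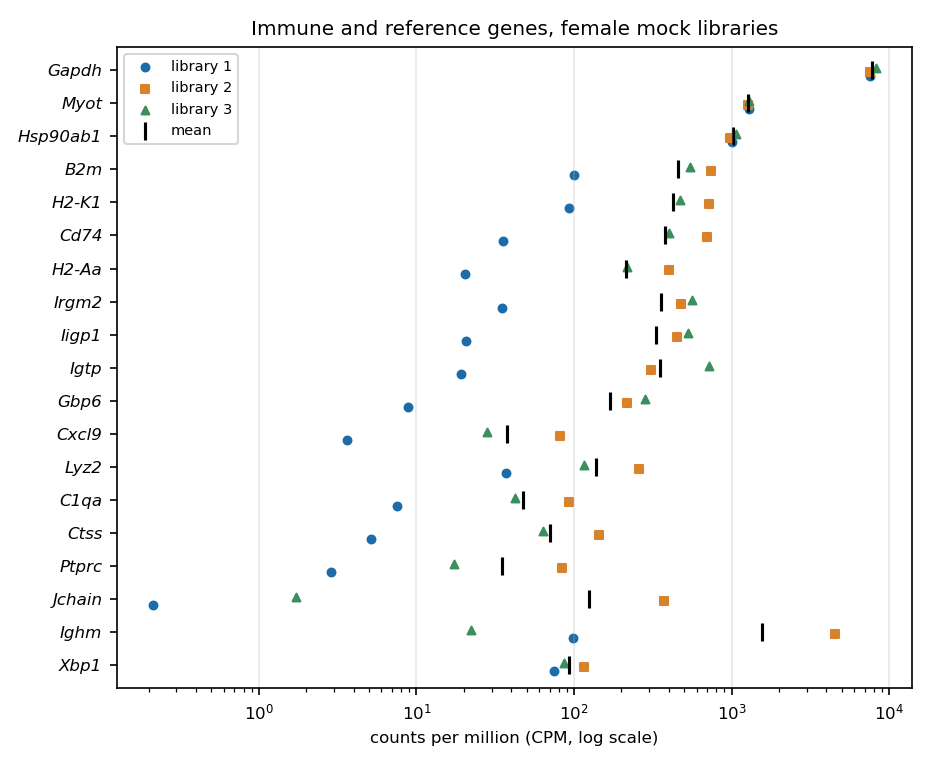
CPM on a log axis for immune genes and 3 reference genes in the female mock libraries, with 1 point per library and a bar at the mean. Gapdh, Myot and Hsp90ab1 nearly coincide in the 3 libraries, library 1 is lowest for the antigen-presentation and interferon genes, and Ighm and Jchain are high in library 2 only.

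Immunoglobulin RNA was found in quantity in female library 2. Ighm, the heavy chain of IgM, lay at 98.8, 4531 and 22.1 CPM and Igkc, the kappa light chain, at 0, 1788 and 4.47 CPM. Jchain, the joining chain of secreted IgM and IgA, lay at 0.213, 373 and 1.72 CPM and Ighg2b at 0, 283 and 0 CPM. Library 2 held nearly all of it, and a count of 0 in library 1 or 3 allows up to 0.320 or 0.323 CPM. The 19 markers of B and plasma cells summed to 182, 7449 and 128 CPM. Of the 8 that reached 10 CPM 7 were variable, against 3.95% of all genes at that level. Some, such as Igkc, passed 10 CPM through library 2 only, so that count is partly set by the filter. Defining B cell genes were present in library 2 as well: Cd79a, of the B cell receptor, lay at 0.107, 32.4 and 0.538 CPM and Ms4a1, which codes for CD20, at 0, 19 and 0.538 CPM. Single variable segments also appeared there, with Igkv3-2 at 0, 311 and 0 CPM. Xbp1, which plasma cells and muscle both express, lay at 75.1, 116 and 86.4 CPM. Variable and constant segments resemble each other, so values of single segments are less sure.

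The other leukocyte genes given next were highest in library 2 and, apart from Mrc1, next in library 3. Retnlg and Retnla, given elsewhere, were highest in library 3. Ptprc, which codes for the pan-leukocyte protein CD45, lay at 2.88, 84.4 and 17.3 CPM. The 18 macrophage markers summed to 107, 945 and 414 CPM, and all 11 that reached 10 CPM were highest in library 2. Of all genes at that level, 43.5% were. Some markers, such as Adgre1, passed 10 CPM through library 2 only, so that count is partly set by the filter. Lyz2, lysozyme, lay at 36.9, 259 and 116 CPM, C1qa, of complement, at 7.57, 92.7 and 42.2 CPM and Adgre1, which codes for F4/80, at 1.92, 31 and 9.48 CPM. Mrc1, of resident macrophages, was closer across libraries at 14.6, 21.8 and 12.1 CPM. Genes of T and natural killer cells were low but followed the same order: Cd3g lay at 0, 12.4 and 2.15 CPM, Cd4 at 0.107, 11.3 and 2.15 CPM and Nkg7 at 0, 6.21 and 2.37 CPM. The B cell chemokine gene Cxcl13 lay at 0, 18.8 and 0.431 CPM. In these 4 genes library 1 was at 0.107 CPM or less. The cycling markers Mki67 and Top2a lay at 0.107, 19.8 and 4.2 and at 0.107, 12.9 and 2.58 CPM.

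Markers of the other cells in the muscle were closer together. The 22 endothelial markers summed to 1431, 1587 and 1578 CPM, the 16 Schwann cell and nerve markers to 121, 145 and 174 CPM and the 25 fibroblast markers to 1928, 3052 and 3116 CPM. Vcam1, an adhesion molecule of activated endothelium and of satellite cells, was the most variable of the satellite cell list at 4.8, 24.7 and 9.91 CPM, whereas Pax7, which defines satellite cells, lay at 2.24, 2.13 and 1.29 CPM. Neutrophil genes were rare, with a sum of 11.4, 17.6 and 21.4 CPM over 12 markers that include mast cell genes. Retnlg, a neutrophil product, lay at 0.427, 0.278 and 11.4 CPM. Haemoglobin genes, which mark blood, lay at 152, 263 and 202 CPM for Hbb-bs. The part of blood, tissue makeup and immune cells in the differences between libraries was not tested.

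**Figure D5:**
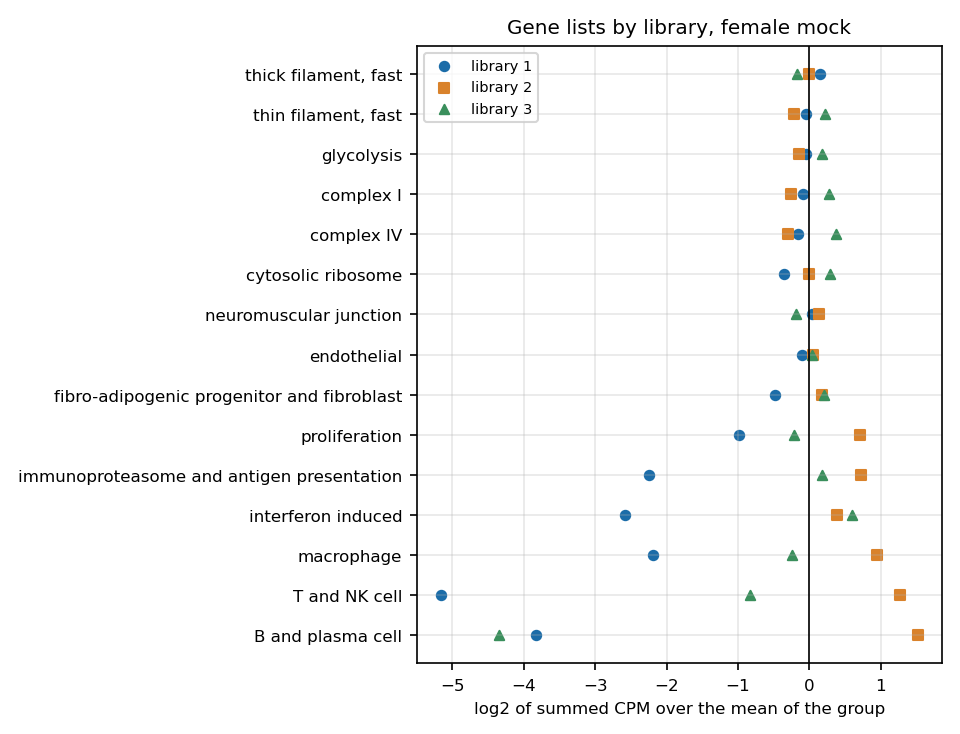
Log2 of the summed CPM of a gene list in each female mock library over the mean of the 3, for 15 lists. Fibre, energy and endothelial lists lie within 0.5 of 0, antigen presentation and interferon genes set library 1 apart on the left, and B and plasma cell markers set library 2 apart on the right.

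Against this background a set of female genes kept even values in all 3 libraries. Eif2s2 and Eif4a2, translation initiation factors, lay at 241, 244 and 242 and at 404, 409 and 410.3 CPM. Myot, myotilin of the Z-disc, lay at 1285, 1262 and 1284 CPM, a CV of 0.988%, and Pcmt1, a protein repair enzyme, at 137, 135 and 136 CPM, the lowest CV at 0.458%. Calm3, calmodulin, and the non-coding RNA Norad lay at 279.8, 289 and 285 and at 456, 447 and 443 CPM. They were chosen as the lowest of many, so their spread is a description only. The median CV of female genes was 17% at a mean of 10 to 100 CPM, where counting alone gives 6.36%, 15% against 2.41% at 100 to 1000 CPM, and 12.4% against 0.726% at 1000 CPM or more. The common biological CV was 25.9%, and 12449 genes reached 1 CPM in every library. Pairs of libraries had 373 (libraries 1 and 2), 459 (1 and 3) and 501 genes (2 and 3) that differed by 2-fold or more.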

How the data were processed

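Poly(A) RNA of the muscle was sequenced from stranded libraries made with a TruSeq kit, per the labels' protocols. The authors deposited 1 table per sex of expected counts, that is estimated counts per gene of which 14.6 to 16.7% are not whole numbers (tolerance 0.001). Reads were counted with featureCounts 2.0.0 on GRCm38.p6, per the submitters' processing notes, with no aligner or strand setting given in the sources used here. The male columns match the labelled group but no single sample.

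Of 42396 gene entries, 2379 are copies of 1766 genes, and these were summed, a choice made after seeing the data, which left 40017 genes. CPM was computed from column totals with Python 3.11.15, numpy 2.4.6 and pandas 2.3.3, and figures were drawn with matplotlib 3.10.9. Lengths are the merged exons of each gene in GENCODE vM21 (same build), which 94 male and 97 female genes at 10 CPM or more lack. The common biological CV came from edgeR 4.0.16 in R 4.3.3 on counts rounded to whole numbers, with TMM factors and its filter on low counts, and the fit was tested on simulated data. No comparison between groups was made. Column totals, 9285145 to 15454510 counts, set the precision, and a count of 0 allows up to 3 counts, for counting error only.

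The members and the 44 gene lists were chosen with earlier results of these data known, and 4 more lists after seeing the values given here. The rule for naming genes takes, in each table, the 25 highest in CPM, the 15 highest per kb, the 20 highest in CV, the 15 lowest in CV at 100 CPM or more, the 4 highest and the most variable member of each list, 12 isoform pairs with the myosin heavy chains, and Lsmem1 and Lsmem2. Other genes named, all predicted genes among them, were chosen after their values were seen. EGFP and mitochondrially encoded protein genes were not analysed here.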

Additional observations from a re-analysis of the deposited data

Results flagged for a closer look

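In groups of 4 libraries, a library was singled out where its gap to the nearest other library, as a share of the whole range, exceeded the critical value of Dixon's test, which chance gives in about 1 of 20 groups. The rule was applied to 221 male values (173 genes and 48 lists) and singled out 15. Many of the genes were named for their spread or after their values were seen, Rn28s1, Lars2, Gm15564 and AY036118 among them, and the chance rate does not apply to those. Groups of 3, the female table, were not examined this way.

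Male library 2 stood apart in 4 entries: Rn28s1, of ribosomal RNA, lay at 262 CPM, Gm15564 at 316, AY036118 at 27.7 and Lars2 at 2114 CPM, all above the other 3 libraries. It was also high for Myh6, at 6.04 CPM. Male library 1 stood apart for Myog, at 7.05 CPM, for the interferon-induced gene Gbp6, at 18.7 CPM against 13.4 to 14.2 in the others, and for the summed glycogen genes, at 14562 CPM. The remaining values are at the limit of detection, where 1 or a few counts make the gap. Library 2 was high at 0.0665 CPM for Cd3g and for Nkg7 and at 0.133 CPM for Myl7, and low at 0.0665 CPM for Nppa. Library 1 was high at 0.0647 CPM for Nrg1, library 3 at 0.0461 CPM for Ighg2b and library 4 at 0.490 CPM for Igkv3-2, with the other libraries of Nrg1, Ighg2b and Igkv3-2 at 0.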

How the results depend on the processing

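No paired analysis was possible because no groups are compared. In males the share of the 10 most abundant genes was 21.0% once ribosomal protein and predicted genes left the total. The male common biological CV ran from 7.64 to 9.71% with 1 library left out and was 7.60% without libraries 3 and 4, a setting chosen after seeing the data. Male variable genes numbered 50 at a minimum mean of 5 CPM, 75 at a CV limit of 30%, and 21 to 40 with 1 library left out. In females the common biological CV was 35.9% with no filter on low counts and 24.9 to 27.3% with 1 library left out. Female variable genes numbered 599 at 5 CPM, 1358 at a limit of 30% and 381 to 524 with 1 library left out, 524 being the count without library 1. The cause of each of these shifts was not tested. Other scalings, copies kept as deposited and removal of the length trend, the last 2 chosen after seeing the data, moved these counts by less than 1.5 times. Sums of the 48 lists and mean CPM of the named genes moved by less than 1 SD between libraries with TMM scaling. Leaving 1 library out cannot move a mean by 1 SD, so that setting cannot test these levels. The CVs of the named genes were held to a limit of 1.5 times. With 1 library left out, 197 of 1348 male and 305 of 1005 female values moved by more than this. With TMM scaling, 44 of 337 and 33 of 335 did. Without division by length, 9 of 12 male and 8 of 12 female isoform shares moved by 1 SD or more. Counting error limits genes below about 10 CPM, and 3 or 4 libraries per table limit every CV.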
